A study of Mus musculus with 15 samples.

Results

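The 7 genes described here encode keratins of the epidermis between the hair follicles, and they were chosen by name out of the 30281 named genes in the deposited tables. Krt5, Krt14 and Krt15 are the 3 basal keratins, and Krt1, Krt2, Krt10 and Krt77 are the 4 suprabasal ones. All 7 were among the 17136 genes that passed the filter on low counts and were tested. The samples were skin of C57BL/6 mice, the common inbred laboratory strain, at day 0, day 1, day 3, day 5 and day 7 of a wounding time course. There were 3 libraries at each time and 15 in all, and the question was how gene expression differed between the times. The labels give wounding as the stress for every library, day 0 included, so that group is called day 0 and not unwounded skin. Muscle and fat had been removed before RNA extraction, per the labels' protocols. Whether replicate libraries stem from different mice is not in the labels. The p-values therefore reflect variation among these samples alone, and how far that variation is technical or lies between mice is not known.

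Keratins are the intermediate filament proteins of epithelial cells. An acidic type I keratin always pairs with a basic type II keratin, so the filaments of a cell are built from both kinds. In the epidermis the dividing cells of the basal layer make Krt5 (type II) with Krt14 (type I), and Krt15 (type I) is a further partner of Krt5 in basal cells and in the bulge of the hair follicle. Cells that leave the basal layer switch to Krt1 (type II) with Krt10 (type I). Krt77 and Krt2, both type II, are further partners of Krt10 in the suprabasal layers, Krt2 in the uppermost living ones. At a wound edge keratinocytes are known to make the stress keratins Krt6a, Krt6b, Krt16 and Krt17 as they migrate.

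The libraries held 38062562 to 60450396 estimated counts. Values are given as CPM, the counts of a gene relative to the scaled size of its library. Several libraries stood apart from others of their time. Among the day 0 libraries, replicate 1 had 2205 CPM of the 4 stress keratins summed, against 364 in replicate 2 and 485 in replicate 3. Replicates 2 and 3 of day 0 stood apart from all 13 other libraries in Eno1b, at 122.85 and 149.99 CPM against 0 to 0.294, and in Skint3, at 0.278 and 0.218 CPM against 38.5 to 154. Their part in the comparisons with day 0 was not tested. Hair keratin and inner root sheath genes summed to 19452 CPM in day 5 replicate 2 and 23563 CPM in day 7 replicate 3, against 27.3 to 2093 CPM in the 13 other libraries. Day 1 replicate 3 had the highest stress keratin sum of its time, 5716 CPM against 3379 and 2799. In a whole-tissue sample, fewer cells of a type and less RNA per cell cannot be told apart.

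Compared with day 0, Krt14 rose at day 3 and no other member was called at any time. A gene was called where its adjusted p from edgeR's quasi-likelihood test, corrected over all genes tested by the Benjamini-Hochberg method, was under 0.05. At day 1, 0 of the 7 keratins were called, beside 7.58% of all genes tested; 2 had an unadjusted p under the threshold and DESeq2 called 2, Krt5 and Krt14. At day 3, 1 of 7 was called, beside 0.788% of all genes; 3 had an unadjusted p under the threshold and DESeq2 called Krt5 and Krt14. At day 5 edgeR called 0, beside 0.502% of all genes, with 1 at an unadjusted p under the threshold and 1, Krt14, called by DESeq2. At day 7 edgeR called 0, beside 7.05% of all genes, with 0 at an unadjusted p under the threshold and 0 called by DESeq2. These 4 comparisons share the day 0 libraries, so their values are not independent of each other. In them DESeq2 called 2786, 943, 1160 and 2822 of all genes in order of time, more than edgeR each time. Counts by DESeq2, here and for the lists below, thus have a larger background than edgeR's. The share of all genes with an unadjusted p under 0.05 is not given here, so counts by unadjusted p stand without a background. The median log2 fold change of the basal members was 0.79 at day 1, 0.80 at day 3, 0.54 at day 5 and 0.085 at day 7. For the suprabasal members the medians were -0.46, -0.0048, 0.56 and 0.53. Over all genes tested they lay between -0.0093 and 0.017.

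**Figure D1:**
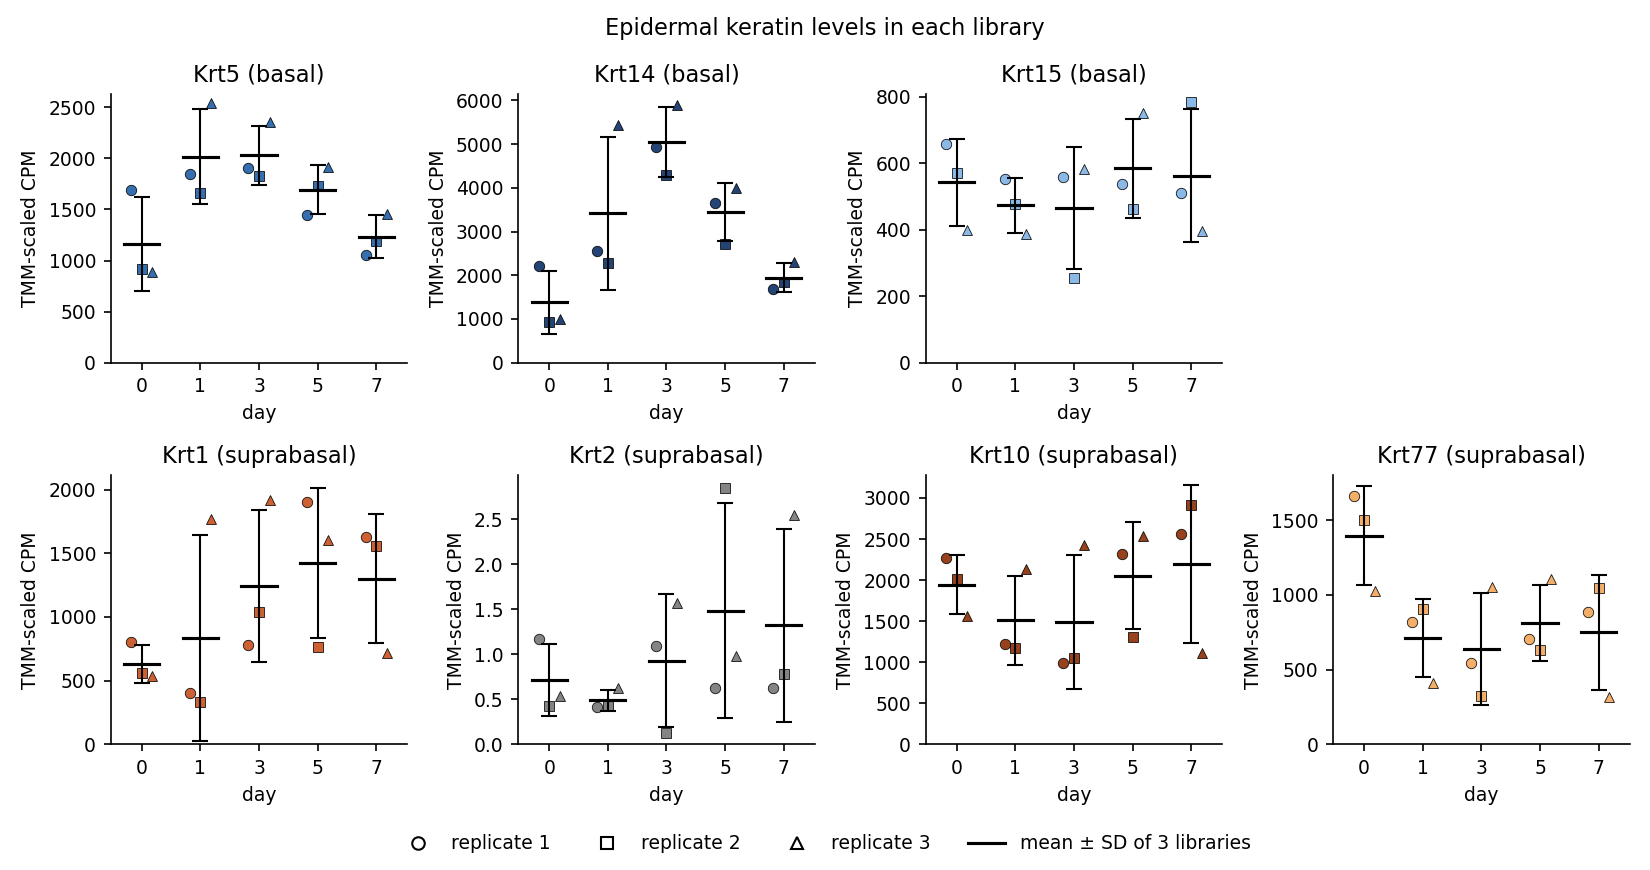
CPM of each of the 7 keratins (TMM-scaled, vertical axes, each from 0) at day 0, 1, 3, 5 and 7 (horizontal axes). Points are the 3 libraries of a time, and bars are the mean with its SD. Krt14 has a mean of 1379 CPM at day 0 and 5043 at day 3, whereas Krt2 stays under 3 CPM in all 15 libraries.

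Krt14, the type I keratin of the basal layer, had 2215, 923 and 1000.5 CPM in day 0 replicates 1, 2 and 3. It had 2549.9, 2276 and 5439.8 CPM at day 1 and 4934, 4299 and 5897 CPM at day 3. Day 5 gave 3652, 2712 and 3997 CPM, and day 7 gave 1686, 1835 and 2312 CPM. Every library of day 1, day 3 and day 5 was above every day 0 library, whereas day 7 overlapped day 0. The means were 1379 ± 724 CPM at day 0, 3422 ± 1753 at day 1, 5043 ± 805 at day 3, 3454 ± 665 at day 5 and 1944 ± 327 at day 7 (SD, n = 3 each). The day 3 level was 3.66-fold that of day 0, a log2 fold change of 1.87 with a standard error of 0.38 (edgeR adjusted p = 0.0460). At day 1 the log2 fold change was 1.31 ± 0.37 (SE) and missed the threshold (edgeR adjusted p = 0.0513), as it did at day 5 with 1.32 ± 0.37 (edgeR adjusted p = 0.102). At day 7 it was 0.50 ± 0.37 (edgeR adjusted p = 0.388).

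The day 3 call on Krt14 was lost when day 0 replicate 2, day 0 replicate 3 or any 1 of the 3 day 3 libraries was left out, with edgeR adjusted p-values from 0.0941 to 0.235, while the log2 fold change stayed between 1.65 and 2.39 over all 6 omissions. Calls over all genes tested were lost as well: they numbered 135 at day 3, 59 without day 3 replicate 3 and 0 under each of the 4 others of these omissions. Without day 0 replicate 1, the library with the high stress keratins, Krt14 and Krt5 were both called at day 1, day 3 and day 5. That leaves day 0 replicates 2 and 3, the libraries apart in Eno1b and Skint3, and calls over all genes were then 2411, 629 and 495 against 1299, 135 and 86. In that setting the edgeR adjusted p at day 3 was 0.00458 for Krt14 and 0.0135 for Krt5.

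Krt14 shares sequence with the stress keratins. Of the 1663 distinct stretches of 31 bases in its GENCODE M21 transcript, 29.2% also occurred in transcripts of other genes, 18.2% in Krt16 and 10.8% in Krt17. Reads from such stretches are divided by estimation. Krt16 and Krt17 together had 292 to 945 CPM in the day 0 libraries and 1542 to 1739.5 CPM at day 3, and their part in the Krt14 values was not tested.

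Krt5, the type II partner of Krt14, had 1692, 916 and 883 CPM in day 0 replicates 1, 2 and 3. It had 1848, 1662 and 2544 CPM at day 1 and 1909, 1826 and 2361 CPM at day 3. The values were 1442, 1729.6 and 1915 CPM at day 5 and 1052, 1192 and 1459.5 CPM at day 7. All 3 day 3 libraries were above all of day 0, while day 1, day 5 and day 7 overlapped day 0 through replicate 1 of day 0. The log2 fold changes were 0.79 ± 0.25 (SE) at day 1 (edgeR adjusted p = 0.0713) and 0.80 ± 0.25 at day 3 (edgeR adjusted p = 0.150). They were 0.54 at day 5 and 0.085 at day 7 (edgeR adjusted p = 0.257 and 0.844). Of the 31-base stretches of Krt5, 9.46% occurred in Krt6a and 5.12% in Krt6b. Those 2 genes together had 71.8 to 1260.4 CPM at day 0 and 3920 to 5320 CPM at day 3, more than Krt5 itself at day 3, and their part in its values was not tested.

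Krt15, the other basal type I keratin, had no such pattern. It stood at 658, 570 and 400 CPM in the day 0 libraries, 553, 478 and 387 CPM at day 1, and 558, 254 and 583 CPM at day 3. At day 5 it had 538, 462 and 752 CPM and at day 7 509, 783 and 396 CPM. Each wounded time overlapped day 0. The log2 fold changes of Krt15 lay between -0.22 and 0.11, and the edgeR adjusted p-values between 0.748 and 0.928.

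Krt10, the type I keratin of the suprabasal layers, had 2265, 2009 and 1558 CPM at day 0 and 1217, 1173 and 2136 CPM at day 1. It had 992, 1051 and 2431 CPM at day 3, 2317, 1309 and 2536 CPM at day 5, and 2557, 2919 and 1110.3 CPM at day 7. At day 1 and day 3 replicates 1 and 2 were below all day 0 libraries and replicate 3 was not. The lowest day 5 and day 7 values were those of the 2 libraries with high hair genes. No comparison was called: the log2 fold changes were -0.37 ± 0.42 (SE), -0.38, 0.079 and 0.18 in order of time, with edgeR adjusted p-values from 0.621 to 0.934.

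Krt1, the main type II partner of Krt10, had 802, 556 and 537 CPM at day 0. Day 1 held both the lowest values of the series, 403 and 329 CPM in replicates 1 and 2, and 1770.5 CPM in replicate 3. Day 3 had 777, 1037 and 1918 CPM, day 5 had 1902, 762 and 1604 CPM, and day 7 had 1632, 1555 and 720 CPM. Every wounded time overlapped day 0 or stood on both sides of it. The means were 632 ± 148 CPM at day 0, 834 ± 812 at day 1, 1244 ± 598 at day 3, 1422 ± 591 at day 5 and 1302 ± 506 at day 7 (SD, n = 3 each). The log2 fold changes of 0.40, 0.98, 1.17 and 1.04, each ± 0.60 (SE), were not called (edgeR adjusted p = 0.714, 0.467, 0.297 and 0.270). At day 1 the sign rested on replicate 3: without it the log2 fold change of Krt1 was -0.79.

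Krt77, a further type II keratin of the suprabasal layers, had 1664, 1500.2 and 1024 CPM at day 0. It had 818, 906 and 411 CPM at day 1, 543, 323 and 1052 CPM at day 3, 707, 630 and 1105 CPM at day 5, and 887, 1045 and 316 CPM at day 7. All 3 day 1 libraries were below all day 0 libraries. At the 3 later times 2 libraries were below day 0 and 1 lay just above the lowest day 0 value. The mean was 1396 ± 332 CPM at day 0 and between 639 ± 374 and 814 ± 255 CPM at the wounded times (SD, n = 3 each). With log2 fold changes of -0.97, -1.13, -0.78 and -0.90, each ± 0.49 (SE), Krt77 was not called at any time (edgeR adjusted p = 0.219, 0.285, 0.381 and 0.243).

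Krt2 was near the limit of what these libraries hold, at 0.123 to 2.85 CPM or 6 to 153 estimated counts. Its means were 0.713 ± 0.403 CPM at day 0, 0.491 ± 0.116 at day 1, 0.929 ± 0.738 at day 3, 1.49 ± 1.20 at day 5 and 1.32 ± 1.07 at day 7 (SD, n = 3 each). The highest values at day 5 and day 7, 2.85 and 2.55 CPM, were those of the 2 libraries with high hair genes. All wounded times overlapped day 0, and no comparison was called (edgeR adjusted p from 0.472 to 0.863).

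**Figure D2:**
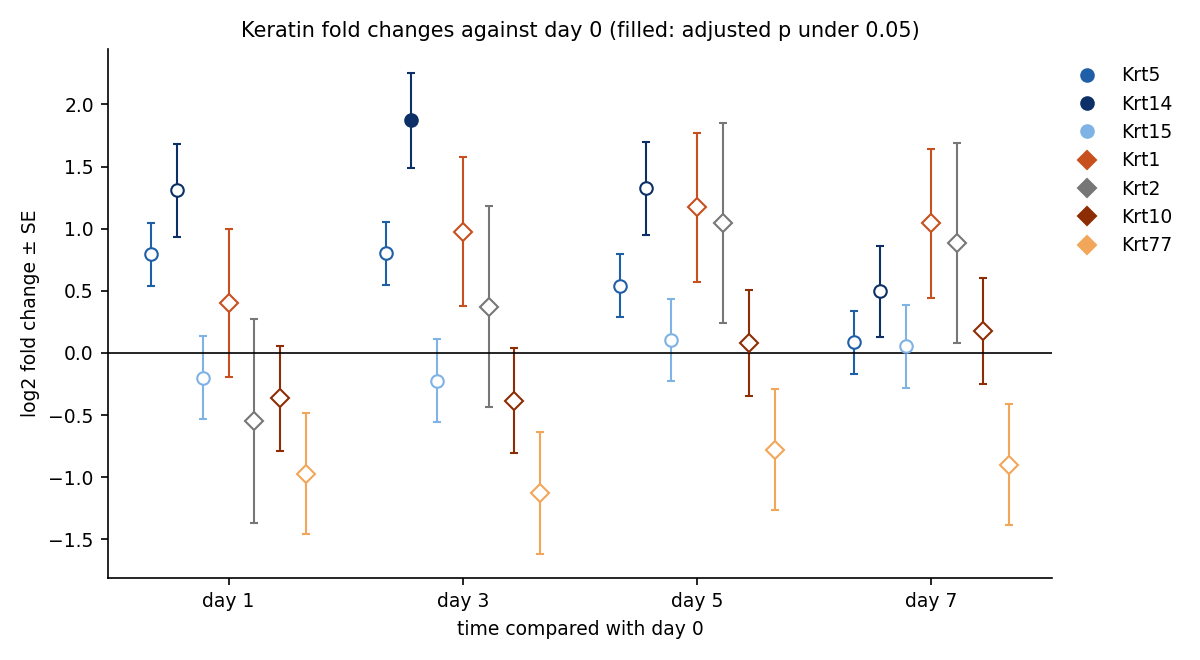
Log2 fold change against day 0 (vertical axis) with its standard error for each of the 7 keratins at day 1, 3, 5 and 7 (horizontal axis), from edgeR over all 15 libraries. Krt14 at day 3, at 1.87, is the called value and the filled point, and Krt77 lies between -1.13 and -0.78 at all 4 times.

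A test of any difference between the 5 times called 1 of the 7, Krt14 (edgeR adjusted p = 0.0275), beside 13.9% of all genes. Krt5 had an adjusted p of 0.0800 and the other 5 members lay between 0.301 and 0.842 in that edgeR test. Between neighbouring times edgeR called 0 of 7 members in each comparison. The shares of all genes called were 0.00584% for day 3 against day 1, 0.0233% for day 5 against day 3 and 0.00584% for day 7 against day 5. Unadjusted p-values were under the threshold for 0, 0 and 1 members, and DESeq2 called 0 in each.

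Ratios within a library do not depend on how its size was scaled. The basal to suprabasal ratio follows from the choice of members, while the ratios of single pairs were chosen after their values were seen. None was given a test. Summed basal over summed suprabasal CPM was 0.965, 0.593 and 0.732 in the day 0 libraries. It was 2.03, 1.83 and 1.94 at day 1 and 3.20, 2.65 and 1.64 at day 3. At day 5 it was 1.14, 1.81 and 1.27, and at day 7 it was 0.640, 0.690 and 1.94. All 9 libraries of day 1 to day 5 were above all of day 0. Per kilobase of transcript the ratio was 1.25, 0.763 and 0.934 at day 0, so which group led there differed between libraries, and 1.47 to 4.21 in those 9 libraries. At day 7 replicates 1 and 2 were within the day 0 range and replicate 3 was not. The highest ratios of day 5 and day 7 were those of the libraries with high hair genes, whose part in them was not tested. The log2 ratio differed from day 0 by 1.37 at day 1, 1.68 at day 3, 0.88 at day 5 and 0.34 at day 7, and by -0.17 at day 7 without replicate 3. Krt14 carries much of the basal sum, and Krt2, at 0.123 to 2.85 CPM, almost none of the suprabasal sum. With each member given equal weight, as the difference of mean log2 values, the same differences were 1.08, 1.04, 0.48 and 0.13. Krt2 then weighed as much as any other suprabasal member, and the part of single members in the change was not tested.

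**Figure D3:**
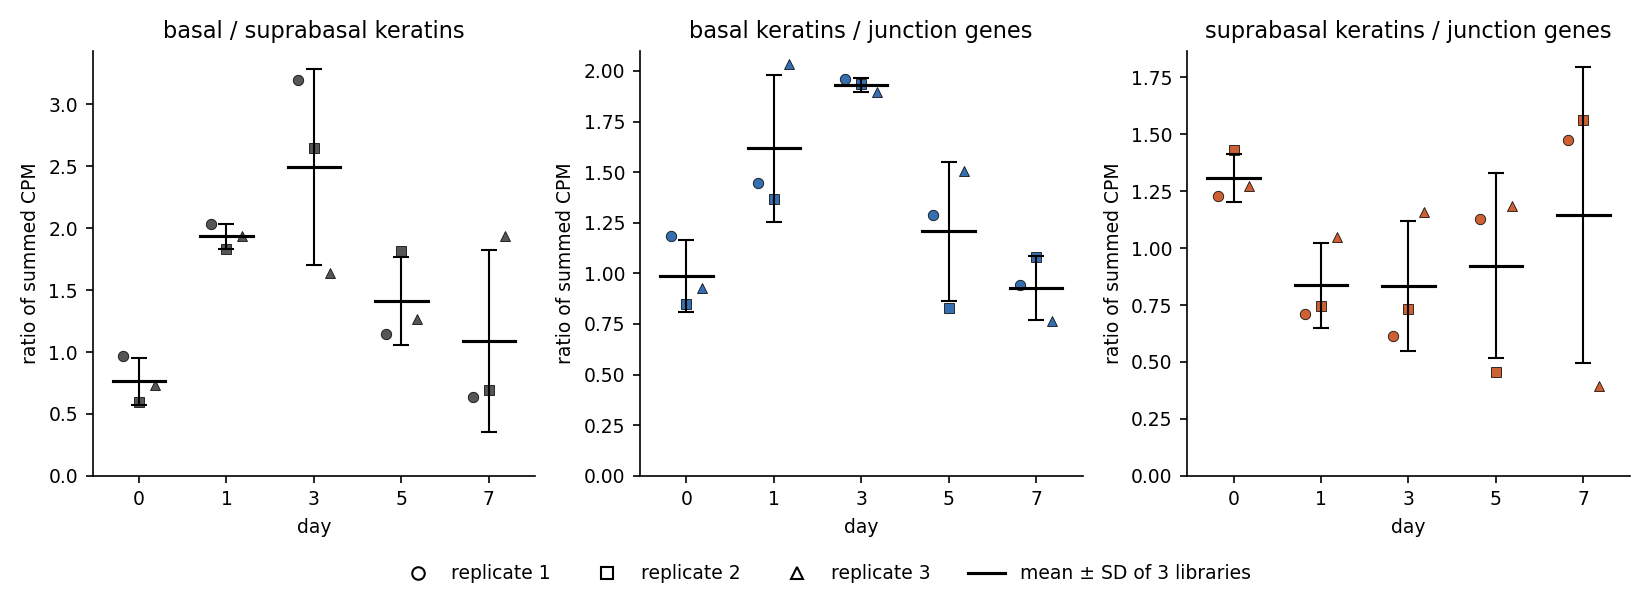
Ratios of summed CPM (vertical axes, from 0) by day (horizontal axes): basal over suprabasal members, basal members over 15 junction genes, and suprabasal members over the junction genes. Points are the 3 libraries of a time, and bars are the mean with its SD. The 9 libraries of day 1, day 3 and day 5 have ratios from 1.14 to 3.20, above the day 0 range of 0.593 to 0.965.

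The amount of epidermis in a piece of skin can itself vary, so the sums were also set against 15 genes of epithelial junctions, such as Cdh1 (E-cadherin) and Dsp (desmoplakin), summed in the same library. Basal over junction CPM was 0.987 ± 0.176 at day 0, 1.62 ± 0.365 at day 1, 1.93 ± 0.0325 at day 3, 1.21 ± 0.344 at day 5 and 0.930 ± 0.158 at day 7 (SD, n = 3 each). Suprabasal over junction CPM was 1.31 ± 0.106 at day 0, 0.837 ± 0.186 at day 1, 0.834 ± 0.287 at day 3, 0.923 ± 0.404 at day 5 and 1.14 ± 0.651 at day 7 (SD, n = 3 each). All libraries of day 1 and day 3 were above day 0 in the first ratio, and all of day 1, day 3 and day 5 were below it in the second. On this scale Krt77 was below all day 0 libraries at each of the 4 times, with a mean log2 difference of -1.27, -1.63, -1.49 and -1.47. Krt10 was below day 0 without overlap at day 1, day 3 and day 5, by -0.66, -0.86 and -0.66. Krt15 was below it at day 1 and day 3, by -0.43 and -0.66, the 2 times at which Krt14, at 1.07 and 1.61, and Krt5, at 0.59 and 0.49, were above it. The junction sum itself had a mean of 3052 CPM at day 0 and 4901 CPM at day 5, where all 3 libraries were above day 0. In plain CPM the suprabasal members were not lower at day 5, with a mean sum of 4292 against 3973 at day 0. Krt10 alone then had a log2 fold change of 0.079. The junction sum was highest in the libraries with high hair genes, 5905 CPM in day 5 replicate 2 and 5447 CPM in day 7 replicate 3.

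Within the basal layer pair, Krt14 over Krt5 was 1.31, 1.01 and 1.13 in the day 0 libraries and 1.38, 1.37 and 2.14 at day 1. It was 2.58, 2.35 and 2.50 at day 3, 2.53, 1.57 and 2.09 at day 5, and 1.60, 1.54 and 1.58 at day 7. All 12 later libraries were above all 3 day 0 libraries, including those of day 7, where neither gene alone stood apart. Krt15 over Krt14 had means of 0.438 at day 0, 0.166 at day 1, 0.0904 at day 3, 0.169 at day 5 and 0.30 at day 7, and all libraries of day 1, day 3 and day 5 were below day 0.

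The suprabasal type II keratins Krt1 and Krt77 stood in a different order at day 0 and from day 3 on. Krt1 over Krt77 was 0.482, 0.371 and 0.525 in the day 0 libraries, where Krt77 had more counts than Krt1 in all 3. At day 1 it was 0.493, 0.363 and 4.30, so that only replicate 3 departed from day 0. It was 1.43, 3.21 and 1.82 at day 3, 2.69, 1.21 and 1.45 at day 5, and 1.84, 1.49 and 2.27 at day 7. In all 9 libraries of day 3, day 5 and day 7 Krt1 had more counts than Krt77, the libraries with high hair genes included. Krt10 over Krt1 was 3.11 ± 0.434 at day 0, 2.60 ± 1.23 at day 1, 1.19 ± 0.149 at day 3, 1.51 ± 0.258 at day 5 and 1.66 ± 0.187 at day 7 (SD, n = 3 each). All libraries of the 3 later times were below day 0 in that ratio. At day 7 these 2 ratios were outside the day 0 range in all 3 libraries, while the basal to suprabasal ratio was within it in replicates 1 and 2.

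**Figure D4:**
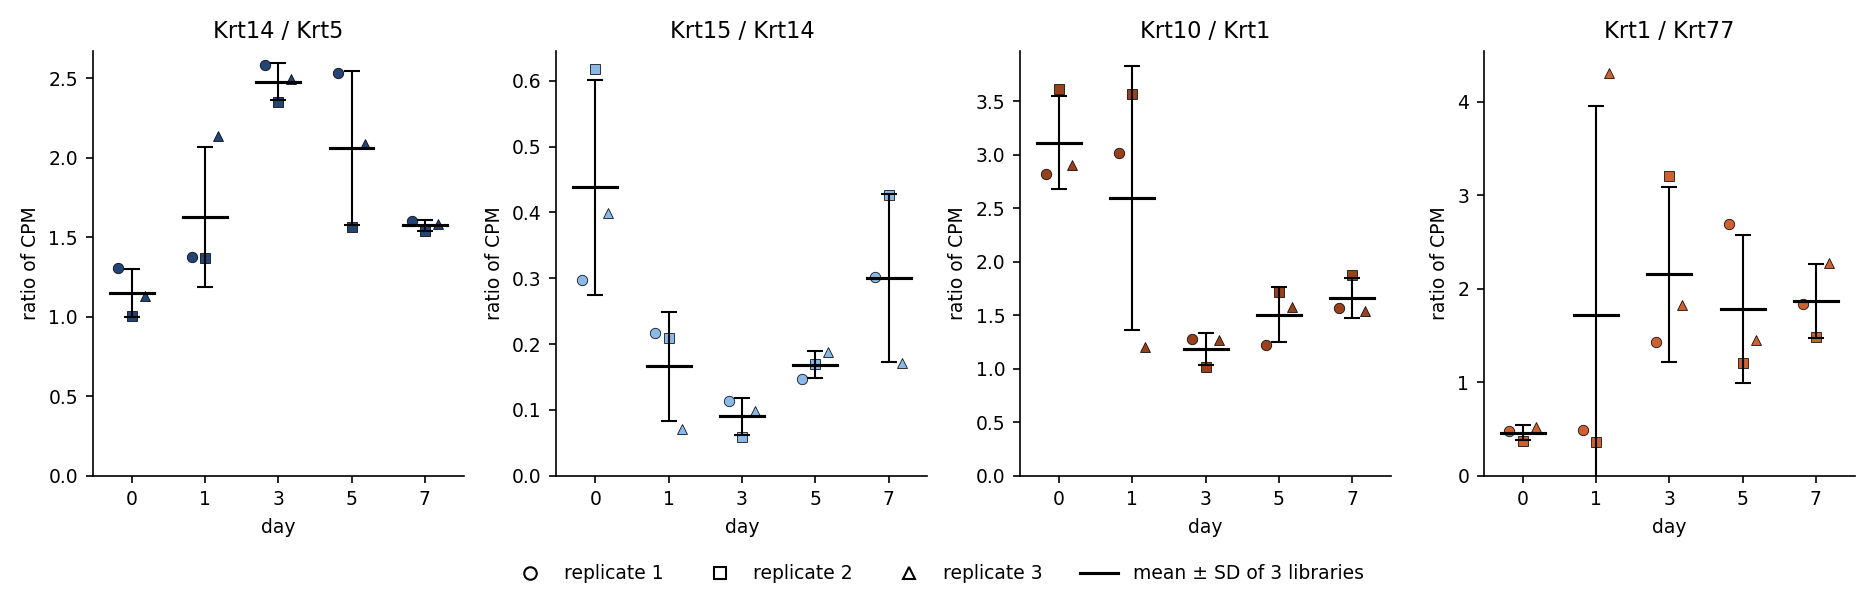
Ratios of CPM between pairs of members in each library (points) with the mean and SD of each time (bars), by day. The SD of Krt1 over Krt77 at day 1 is larger than its mean because of replicate 3, at 4.30, and its lower end is cut at 0. Krt14 over Krt5 is above the day 0 range of 1.01 to 1.31 in all 12 later libraries.

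Levels of different genes can be compared only per transcript length. In CPM per kilobase the order at day 0 was Krt10 (928), Krt14 (812), Krt5 (530), Krt77 (476), Krt15 (319), Krt1 (257) and Krt2 (0.273). Each neighbour among the first 6 overlapped the next in its range over libraries, and Krt2 stood below all. Krt14 was first at day 1 (2015), day 3 (2970) and day 5 (2034), above the next gene without overlap. The next gene was Krt5 at day 1 (919) and day 3 (925) and Krt10 at day 5 (981). At day 7 Krt14 (1145) and Krt10 (1048) overlapped again. Krt77, above Krt15 and Krt1 at day 0, had a lower mean than both at all 4 later times, although its range overlapped those of both each time. At day 1 the lower mean beside Krt1 rested on replicate 3: Krt77 made up more of the members' sum than Krt1 in replicates 1 and 2 (7.56% against 4.45%, and 9.14% against 3.96%). Beside Krt15, Krt77 was lower in replicate 1 too (7.56% against 8.82%) and higher in replicate 2 (9.14% against 8.31%).

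As a share of the 7 members summed per kilobase, Krt14 made up 23.6% at day 0, 43.3% at day 1, 53.7% at day 3, 40.9% at day 5 and 30.6% at day 7. Krt10 made up 28.6%, 16.0%, 12.2%, 19.3% and 26.2% at those times. The share of Krt77 was 14.5% at day 0 and then 6.29%, 3.69%, 5.54% and 6.34%, whereas Krt1 had 7.85%, 6.52%, 8.80%, 11.3% and 13.4%. Type I over type II members per kilobase was 1.62 ± 0.0377 at day 0 and 1.97 ± 0.208, 2.43 ± 0.243, 2.05 ± 0.130 and 1.88 ± 0.131 at the later times (SD, n = 3 each), with all 12 later libraries above day 0. The stress keratins are not members and are left out of this ratio. Their type II genes Krt6a and Krt6b together had means of 495 CPM at day 0 and 4724 CPM at day 3. Their type I genes Krt16 and Krt17 together had 523 and 1673 CPM. The ratio therefore does not give the balance of all epidermal type I and type II keratins. The 7 genes together took up 0.716% of all counts at day 0 and 1.09% at day 3.

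**Figure D5:**
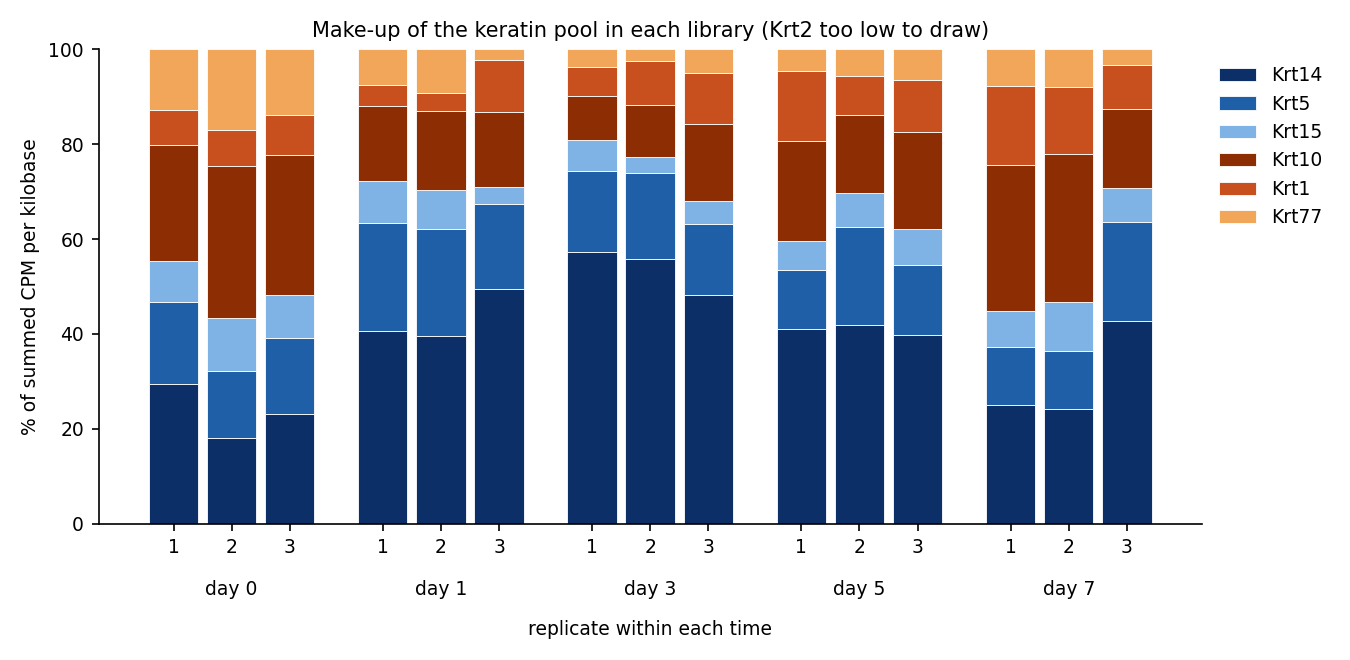
Make-up of the summed CPM per kilobase of the members in each library (percent, stacked bars from 0 to 100), with basal keratins in blue and suprabasal keratins in orange. The share of Krt14 is largest at day 3, with a mean of 53.7%, and that of Krt77 is largest at day 0, with a mean of 14.5%.

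Compared with day 0, edgeR called 1 of the other basal layer genes listed, at day 1. Of 13 genes for its adhesion to the basement membrane and its identity, Lama3, a chain of laminin-332, rose 2.24-fold at day 1 (log2 fold change 1.16 ± 0.31 SE, edgeR adjusted p = 0.0409). The 12 others were not called, so 1 of 13 was called beside the 7.58% of all genes. DESeq2 called 5 of the 13, beside 2786 of all genes, and 8 had an unadjusted p under 0.05. The list's median log2 fold change was 0.46 beside -0.0093 for all genes. At day 3, day 5 and day 7 edgeR called 0 of 13, with 5, 0 and 1 at an unadjusted p under 0.05 and 5, 0 and 0 called by DESeq2. Over time edgeR called 5 of the 13, beside 13.9% of all genes, with 8 at an unadjusted p under 0.05. DESeq2 called 8 over time, beside 5853 of all genes.

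Of 20 genes of spinous and granular differentiation, edgeR called 0 at day 1, day 3 and day 5, where 2, 6 and 11 had an unadjusted p under 0.05 and DESeq2 called 0, 2 and 6. At day 7, 2 of 20 rose, beside the 7.05% of all genes called, with 6 at an unadjusted p under 0.05 and 4 called by DESeq2. Calml3, a calmodulin-like protein of differentiating keratinocytes, rose 2.00-fold (log2 fold change 1.00 ± 0.24 SE, edgeR adjusted p = 0.0306). Rptn, encoding repetin of the cornified envelope, rose 5.72-fold, from 42.2 ± 11.3 to 241 ± 34.4 CPM (SD, n = 3 each; edgeR adjusted p = 0.0483). The median log2 fold change of the 20 genes was 0.11, 0.25, 0.78 and 0.54 in order of time, beside medians over all genes between -0.0093 and 0.017. Over time edgeR called 4 of the 20, beside 13.9% of all genes, with 8 at an unadjusted p under 0.05. DESeq2 called 8 of them over time, beside 5853 of all genes.

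The 4 stress keratins had median log2 fold changes of 2.20, 2.94, 2.05 and 0.90, yet edgeR called 0 of them at any time. An unadjusted p under 0.05 was found for 3, 3, 4 and 1 of them, and DESeq2 called 2, 3, 0 and 0. Over time edgeR called 0 of the 4, beside 13.9% of all genes. In that test 3 had an unadjusted p under 0.05, and DESeq2 called 3. Krt6a had 286 ± 366 CPM at day 0 and 2219 ± 199 at day 3 (SD, n = 3 each; edgeR adjusted p = 0.108), the large day 0 spread coming from replicate 1 at 707 CPM. Krt6b had 209 ± 298 and 2504 ± 526 CPM (SD, n = 3 each; edgeR adjusted p = 0.124).

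Of the 6 other suprabasal keratins listed, 5 were tested and edgeR called 0 at any time, with 0 at an unadjusted p under 0.05 and 0 by DESeq2 in each of the 4 comparisons. Krt80 had log2 fold changes of -0.34, -0.52, 0.28 and 0.025, and Krt23 of -0.73, -0.96, 0.36 and 0.44. The simple epithelial keratins were scarce, at 3.9 to 17.9 CPM for all 5 summed. Krt20, known from Merkel cells in skin, fell by 2.48 on the log2 scale at day 1, from 4.52 ± 1.61 to 0.810 ± 0.223 CPM (SD, n = 3 each; edgeR adjusted p = 0.0156). Krt7 rose by 2.03 at day 7 to 3.48 ± 0.361 CPM (SD, n = 3; edgeR adjusted p = 0.00682). At day 3 and day 5 edgeR called 0 of the 5, with 1 and 1 at an unadjusted p under 0.05 and 0 and 1 called by DESeq2.

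For the 15 junction genes edgeR called 0 at each time, with 0, 1, 10 and 3 at an unadjusted p under 0.05 and 0, 0, 2 and 1 called by DESeq2. Perp, a desmosome-associated membrane protein, had log2 fold changes of 0.36, 0.64, 0.88 and 0.72, and the desmosomal plaque protein Pkp1 of 0.36, 0.44, 0.71 and 0.33. For 16 keratinocyte transcription factors edgeR likewise called 0, with 2, 1, 5 and 5 at an unadjusted p under 0.05 and 2, 0, 2 and 2 called by DESeq2. Klf4, a factor of the differentiating layers, had a log2 fold change of -0.51 ± 0.16 (SE) at day 1 (edgeR adjusted p = 0.0679). Sox9, a factor of the hair follicle, had 0.80 ± 0.23 at day 5 (edgeR adjusted p = 0.109). Over time edgeR called 1 of the 15 junction genes and 1 of the 16 factors, beside 13.9% of all genes. In that test 4 junction genes and 5 factors had an unadjusted p under 0.05, and DESeq2 called 4 and 5.

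Genes of the hair follicle and sebaceous gland, where Krt5, Krt14 and Krt15 are also made, were called at day 1. Beside the 7.58% of all genes called at day 1, 3 of 9 genes of the bulge and outer root sheath fell: Cd34 by 1.32, Lrig1 by 0.55 and Tcf7l1 by 0.42 on the log2 scale (edgeR adjusted p = 0.0266, 0.0342 and 0.0452). Of 7 sebaceous genes 1 was called beside that share: Awat2, a wax synthase, fell by 1.33 (edgeR adjusted p = 0.0430). At the 3 later times edgeR called 0 of either list. The counts at an unadjusted p under 0.05 were then 2, 1 and 3 of the bulge genes and 1, 0 and 1 of the sebaceous genes, and DESeq2 called 0, 0 and 0 of the former and 0, 0 and 1 of the latter. For 17 hair keratin and inner root sheath genes edgeR called 0 in each comparison with day 0, with 0 at an unadjusted p under 0.05 and 0 by DESeq2. For day 5 against day 3 edgeR called 0 of the 17, with 17 at an unadjusted p under 0.05 and 7 called by DESeq2. Over time edgeR called 0, with 0 at an unadjusted p under 0.05 and 4 called by DESeq2. Cd34 is also made by vessels and fibroblasts. The part of these appendages in the keratin values was not tested.

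Across the 15 libraries, Krt5 and Krt14 moved most closely together among the members (Pearson r = 0.92, and 0.89 after the mean of each time was removed). Krt1 and Krt10 had r = 0.68 and, within times, 0.87. The corresponding values for Krt15 and Krt77 were 0.74 and 0.85, although one is basal and the other suprabasal. Krt1 and Krt77 had r = -0.096, and Krt5 and Krt15 had r = -0.073. The genes most like each member were ranked by the same r among 11986 genes with a mean of at least 5 CPM. For Krt5 they were Plek2 (r = 0.96), Dsg3, a desmoglein of the lower epidermis (0.95), and Aqp3, an epidermal water and glycerol channel (0.93). For Krt14 they were Ptprz1 (0.95), Car12 (0.95) and Krt6a (0.94). Krt15 was most like Ackr4 (0.95), Krt1 most like H60c (0.95), Krt10 most like Entpd5 (0.90), Krt77 most like Phf24 (0.95) and Krt2 most like Tmem54 (0.91). These are descriptions over libraries that share their times and their mix of tissues.

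The type I members lie on chromosome 11 and the type II members on chromosome 15 in RefSeq's mouse table (GRCm38.p6). On chromosome 15, Krt5 spans 101707069 to 101712905, Krt2 101810689 to 101818956, Krt1 101845426 to 101850786 and Krt77 101858731 to 101869706. On chromosome 11, Krt10 spans 99385254 to 99397449, Krt15 100131759 to 100135949 and Krt14 100203162 to 100207510. Of the members, Krt77 thus lies closest to Krt1, the gene whose ratio to it is described above. The 150 bases before the start in RefSeq's promoter table, which can differ from the end of the gene's span, are shown for Krt5 beside 3 suprabasal members, because Krt10 and Krt77 stood lower than day 0 relative to the junction genes at day 1 and day 3, where Krt5 stood higher, and Krt2 was the scarcest member. All are on the minus strand and written 5′ to 3′, with matches to the searched motifs in capitals.
Krt5, chr15:101712906-101713055: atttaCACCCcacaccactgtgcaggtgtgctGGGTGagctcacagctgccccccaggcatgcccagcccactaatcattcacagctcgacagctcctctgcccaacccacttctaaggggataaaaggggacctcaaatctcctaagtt
Krt10, chr11:99389365-99389514: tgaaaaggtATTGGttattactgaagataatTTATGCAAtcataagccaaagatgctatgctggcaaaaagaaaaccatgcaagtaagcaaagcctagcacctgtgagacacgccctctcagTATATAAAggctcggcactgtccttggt
Krt77, chr15:101869706-101869855: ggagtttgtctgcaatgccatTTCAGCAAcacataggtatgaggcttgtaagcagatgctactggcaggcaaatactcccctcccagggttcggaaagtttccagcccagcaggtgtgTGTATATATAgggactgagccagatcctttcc
Krt2, chr15:101818170-101818319: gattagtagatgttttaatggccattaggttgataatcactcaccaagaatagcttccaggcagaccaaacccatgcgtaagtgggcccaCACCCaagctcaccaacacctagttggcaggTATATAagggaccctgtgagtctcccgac

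The motifs searched on both strands were TATANA (for the TATA box), TGANTCA (AP-1), GCCNNNGGC (AP-2), GGGCGG (a GC box), CCAAT (a common promoter box), CACCC (known from Krüppel-like factors) and TTGCNNAA (C/EBP). TATANA was found in Krt2, Krt10 and Krt77, where overlapping matches are capitalised as 1 run, and not in Krt5, beside 13.3% of 32851 promoters of the same length. The Krt5 window does hold gataaa, which differs from TATANA only in its first letter. The missing match therefore does not show that Krt5 lacks a TATA-like run. CACCC occurred at 2 places in Krt5 and 1 in Krt2, beside 37.4% of promoters. TTGCNNAA occurred once each in Krt10 and Krt77, beside 5.46%, and CCAAT once in Krt10, beside 24.5%. The other motifs had no match in these 4 windows, beside 4.24% of promoters for TGANTCA, 9.61% for GCCNNNGGC and 28.6% for GGGCGG. A match is a run of letters and says nothing about binding in these samples.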

How the data were processed

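Skin RNA libraries made with an mRNA-seq kit were sequenced on an Illumina HiSeq X-Ten, per the labels' protocols and the series text. The deposited values are estimated counts per gene symbol, which the authors obtained by pseudoalignment in kallisto 0.43, per the submitters' processing notes. The index, annotation, build and strand setting were not given in the sources used here. The counts were already whole numbers, so rounding had no effect. Of 30307 rows in each library, 26 bore dates in place of symbols and were left out (0.154% to 0.179% of counts).

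Genes were filtered with edgeR 4.0.16 (filterByExpr, minimum count 10; R 4.3.3, limma 3.58.1), scaled with TMM factors, and fitted in 1 robust quasi-likelihood model over all 15 libraries, grouped by labelled time. Benjamini-Hochberg adjustment ran over 17136 genes. The common biological coefficient of variation was 30.9%. DESeq2 1.42.0, other size factors, no filter, only the times compared, each library left out and the replicate block were alternatives. Scripts were tested on simulated data. No 2 libraries of a time agreed within sampling noise (smallest chi-square per degree of freedom 34.2). Correlations and the equal-weight difference of basal and suprabasal mean log2 values used log2(CPM + 0.5), whereas levels and the other ratios used CPM without a pseudocount. Transcript lengths and shared 31-base stretches came from GENCODE M21, and promoters from RefSeq. For Krt14 the RefSeq start lay 1518 bases from the GENCODE coding transcript start, so it is not printed, and Krt1 and Krt15 are named only.

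The members and gene lists were chosen with earlier results of these data known. All 7 members are named in full. From each list the text names up to 3 called genes with the smallest adjusted p, or up to 2 with the smallest p where none was called. Of the lists for other cells, edgeR called at day 1, beside 7.58% of all genes, 7 of 8 neutrophil genes higher, 0 of 8 macrophage genes, 4 of 6 T cell genes lower, 1 of 9 fibroblast genes higher and 3 lower, and 0 of 6 endothelial, 5 adipocyte, 5 skeletal muscle and 5 melanocyte genes. Where edgeR called 0, the macrophage, endothelial, adipocyte, muscle and melanocyte lists had 4, 1, 1, 0 and 0 genes at an unadjusted p under 0.05, and DESeq2 called 2, 1, 0, 0 and 0. At day 3, beside 0.788% of all genes, edgeR called 2 of 8 neutrophil genes higher (8 at an unadjusted p under 0.05, 5 by DESeq2) and 0 of the macrophage, T cell, fibroblast, endothelial, adipocyte, muscle and melanocyte genes (0, 5, 3, 3, 1, 0 and 0 at an unadjusted p under 0.05, and 0, 1, 2, 3, 0, 0 and 0 by DESeq2). At day 5 edgeR called 0 of any of these lists (2, 6, 2, 3, 3, 1, 4 and 3 at an unadjusted p under 0.05, neutrophil first, and 1, 0, 0, 3, 1, 0, 0 and 0 by DESeq2). At day 7, beside 7.05% of all genes, edgeR called 5 of 8 macrophage, 2 of 8 neutrophil and 1 of 5 muscle genes lower. Those lists had 7, 2 and 2 at an unadjusted p under 0.05, and DESeq2 called 7, 2 and 1. Of the T cell, fibroblast, endothelial, adipocyte and melanocyte genes edgeR called 0. There 0, 3, 1, 2 and 5 had an unadjusted p under 0.05, and DESeq2 called 0, 1, 1, 1 and 1.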

Additional observations from a re-analysis of the deposited data

How the results depend on the processing

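Of the 7 keratins, those called against day 0 numbered 0 at day 1, 1 at day 3, 0 at day 5 and 1 over time. DESeq2 called 2, 2, 1 and 2. At day 3 the count was 0 without the expression filter, where the edgeR adjusted p of Krt14 was 0.0501, and 0 when only day 0 and day 3 were fitted (edgeR adjusted p = 0.0761). Without day 5 replicate 2 and day 7 replicate 3 together the day 1 count was 2. Leaving out each library in turn gave 0 to 2 at day 1, day 3 and day 5 and over time, and 0 to 0 at day 7 and between neighbouring times. The count of 2 came without day 0 replicate 1, in each of these 4 tests with Krt5 and Krt14. Over time the count was 0 without day 0 replicates 2 or 3, day 3 replicates 1 or 3, or day 7 replicate 2. The edgeR adjusted p of Krt14 over time was then 0.0570 to 0.0719. Over all genes 1327, 1469, 1572, 1992 and 1428 were still called over time, in that order of omissions, against 2380 with all libraries. With no day 0 library but replicate 1, an alternative chosen after seeing the data in which that library is assumed to vary like the other groups, 0 members were called at day 3 and 0 over time. In that setting 0 of all genes were called at day 1, day 3 or day 5, so it says nothing about the members there. For the other settings the cause was not tested. Over all genes edgeR called 1299, 135 and 86 at day 1, day 3 and day 5, against 862, 78 and 27 with the replicate block, 983, 71 and 81 without the filter, 1552, 202 and 0 with only the times compared, 3545, 697 and 306 without the 2 libraries with high hair genes, and 2786, 943 and 1160 by DESeq2.

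None of the fold changes that reversed was called. Against day 0 replicate 1 alone, Krt2 was at -0.33 at day 3, Krt15 and Krt10 at -0.16 and -0.13 at day 5, and Krt5, Krt14, Krt15 and Krt10 at -0.43, -0.16, -0.21 and -0.027 at day 7 on the log2 scale. Without the 2 libraries with high hair genes, Krt5 was at -0.053 and Krt2 at -0.030 at day 7. Leaving out single libraries gave log2 ranges that crossed 0 at day 1 for Krt1 (-0.79 to 0.78) and Krt2 (-0.80 to 0.019), and at day 3 for Krt15 (-0.42 to 0.074) and Krt2 (-0.22 to 0.94). They did so at day 5 for Krt15 (-0.12 to 0.27) and Krt10 (-0.10 to 0.32), and at day 7 for Krt5 (-0.062 to 0.46), Krt15 (-0.26 to 0.26), Krt2 (-0.018 to 1.45) and Krt10 (-0.084 to 0.50).

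The difference of the log2 basal to suprabasal ratio from day 0 ranged, with each library left out, from 1.20 to 1.55 (day 1), from 1.48 to 1.96 (day 3), from 0.69 to 1.07 (day 5) and from -0.17 to 0.63 (day 7). As a difference of mean log2 values, with Krt2 weighted like the other members, it was 1.08, 1.04 and 0.48 at the first 3 of these times. With summed CPM, and Krt1 and Krt10 alone as the suprabasal members, the log2 ratio differed from day 0 by -0.0063 at day 7. With the replicate number as a block, Krt14 was called at day 3 (log2 fold change 1.88, edgeR adjusted p = 0.0489) and over time (edgeR adjusted p = 0.0298), and no call on a member changed. The numbers gave no clear pairing of the libraries. Over 30 pairs with the same number the deviations from the time means correlated at -0.81 to 0.52. Their mean was 0.041, against -0.015 for pairs with different numbers, and 7 of 15 libraries correlated best with their own number. With so wide a range these values cannot exclude a pairing. Fold changes between neighbouring times were not recomputed one by one, only their counts of called members.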
